A study of Mus musculus with 10 samples.

Results

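The genes of tubulins, kinesins and dyneins, with the stathmins and the doublecortin-like kinases that act on the same filaments, were compared in tuft cells and in the remaining epithelium of the injured pancreas. Members were the rows of the deposited expression table whose gene symbols begin as alpha-, beta- or gamma-tubulins and gamma-tubulin ring proteins (Tuba, Tubb, Tubg), kinesins (Kif), cytoplasmic dynein chains (Dync, Dynl), stathmins (Stmn) or doublecortin-like kinases (Dclk). In all, 53 of the 12160 listed genes were members, taken by symbol alone. They comprised 4 alpha-tubulins, 5 beta-tubulins, 6 genes of gamma-tubulin and its ring complex, 3 mitotic kinesins, 16 non-mitotic kinesins, 14 dynein chains, 2 stathmins and 2 doublecortin-like kinases. The remaining member, Kif1bp, was matched by its name only, since it encodes a protein that binds kinesins and is not itself a kinesin.

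Microtubules are hollow filaments built from dimers of alpha- and beta-tubulin. They are nucleated by ring complexes of gamma-tubulin, and each tubulin family holds several nearly identical isotypes that differ most in their acidic tails. Kinesins and cytoplasmic dynein move cargo along microtubules in opposite directions, and a separate set of kinesins builds the spindle and is made mainly by dividing cells. Tuft cells are chemosensory epithelial cells with a tuft of long apical microvilli, and Dclk1, a kinase with a microtubule-binding doublecortin domain, is widely used to identify them.

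RNA was sequenced by Smart-Seq2, a full-length cDNA method for small samples, in 10 libraries of 100 sorted cells each. All cells came from wild-type male CD1 mice (the strain field of the sample records reads Mixed) given 4 cycles of caerulein, a cholecystokinin receptor agonist that injures acinar cells, at 250 μg/kg in the study's methods. The 5 tuft libraries held Cd45-neg EpCAM+ Siglec f+ cells and the 5 non-tuft libraries held Cd45-neg EpCAM+ Siglec f-neg cells, so both groups shared the same genotype and treatment, and an uninjured group and the age of the mice were not analysed here. Both kinds of cells were sorted from 5 mice, and Siglec f, the surface lectin used for the gate, is not a member.

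Values are read as quantile-normalized log2(RPKM + 1), the added 1 being inferred from a lowest value of 0, where RPKM is the number of reads scaled by transcript length and by the mapped reads of a library. Levels of different genes are compared below only as RPKM, which is per length and was recovered as 2 to the power of the value, minus 1. The lowest value of a library, its floor, was 0 in 9 libraries and 0.17 in non-tuft library 2, and between 11.9% and 30.9% of the listed genes stood at it. Because a variance filter had removed genes low in every library, genes at the floor in all libraries of 1 group were listed mainly because the other group was higher. The depth of the libraries is unknown. A difference is the mean log2 value of the tuft libraries minus that of the non-tuft libraries and understates the change of low genes. A gene was called when limma's moderated test gave an adjusted p under 0.05 and the fold change was over 4.

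The 14 listed tuft cell markers were all called higher in tuft cells, and their summed RPKM ran from 2429 to 9390 in the tuft libraries. The non-tuft libraries were not uniform in these markers. Their summed RPKM was 87.0, 205.0, 0.827, 0.333 and 401.3 in non-tuft libraries 1 to 5, which was 1.68%, 3.96%, 0.0160%, 0.00645% and 7.76% of the mean tuft level. The 16 acinar markers summed to between 74681 and 118377 RPKM in the non-tuft libraries and reached 37.2%, 21.9%, 7.8%, 78.3% and 0.794% of the mean non-tuft level in tuft libraries 1 to 5. Islet and neuroendocrine markers summed to 23172 RPKM in non-tuft library 1 while non-tuft libraries 2 to 5 had 147 to 2988, against 47.2 to 159 in tuft cells. Markers of fibroblasts and endothelium summed to 754 RPKM in non-tuft library 5 and 254 in tuft library 5 and to at most 23.1 in the other 8 libraries. The 4 listed markers of neurons and Schwann cells summed to 0.498 to 15.1 RPKM in non-tuft and 0.366 to 15.5 in tuft cells. The 10 listed leukocyte markers gave 8.90 to 147 RPKM in non-tuft and 20.5 to 81.7 in tuft cells, and the 10 ductal markers 812 to 4256 and 576 to 710. Among the leukocyte markers Ptprc, which encodes Cd45, was called higher in tuft cells (difference 2.72, adjusted p = 0.00292, limma). Of the 9 eosinophil markers looked for, 0 were among the 12160 genes, so their level is not known here. The part of these cell type markers in the results below was not tested, except where values without the libraries concerned are given.

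Some members have near copies, and 50-base reads cannot always be assigned between them. Of the 53 members, 28 shared no stretch of 50 bases with the transcript of another gene in the GENCODE annotation of NCBIM37 (mm9), 17 shared more than 10% of their stretches and 6 more than 50%. Not all of the 17 shared with copies, since Tuba4a, Tubgcp4, Kif2a, Tubgcp6 and Kif3c shared with genes of other families. Tuba1a shared 61.0% of its stretches, Tuba1b 67.0% and Tuba1c 60%, mainly with each other, while Dclk1, Kif21b, Kif12, Kifc3 and Stmn1 shared none. Tubb4b and Tubb5 shared 4.65% and 0.116% of their stretches with other genes, so they can be told apart along most of their transcripts. The last 60 coding bases of 4 beta-tubulin genes are shown because they encode the acidic tails, and they end in the stop codon. They were read from the NCBIM37 genome on the coding strand, 5′ to 3′, and capitals mark bases that differ from Tubb4b. Tubb4b lies at chr2:25077828-25077887, Tubb5 at chr17:35971927-35971986, Tubb2a at chr13:34166337-34166396 and Tubb2b at chr13:34219340-34219399, all on the minus strand.
Tubb4b: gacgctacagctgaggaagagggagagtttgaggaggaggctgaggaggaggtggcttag
Tubb5: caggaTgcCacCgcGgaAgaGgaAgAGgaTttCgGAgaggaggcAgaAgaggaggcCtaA
Tubb2a: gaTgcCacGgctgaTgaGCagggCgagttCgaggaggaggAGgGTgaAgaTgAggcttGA
Tubb2b: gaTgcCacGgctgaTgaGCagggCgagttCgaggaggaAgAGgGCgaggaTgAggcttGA
Each of the 3 other beta-tubulins shown differed from Tubb4b at 17 bases, counted along a global alignment of the coding sequences in which gaps were allowed, with whole-coding identities of 82.2% for Tubb5, 83.6% for Tubb2a and 83.5% for Tubb2b.

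Among the 53 members, 3 were called higher in tuft cells, namely Dclk1, Tuba1a and the non-mitotic kinesin Kif21b, and 2 were called lower, the non-mitotic kinesins Kif12 and Kifc3. These counts are 5.66% and 3.77% of the members, against 4.32% of all listed genes called higher and 3.99% called lower, so the members as a whole were called about as often as other genes. With the adjusted p alone, 4 members were higher, the additional one being Tubb4b, and 2 were lower, against 6.19% and 5.55% of all genes. Every tuft library was above every non-tuft library for 5 members (Dclk1, Tuba1a, Kif21b, Tubb4b and Tuba1c) and below for Kif12 alone, against 6.31% and 5.12% of all genes. The median difference was -0.10 over the members and 0.12 without the mitotic kinesins, against 0.02 over all listed genes, with 26 members above 0 and 27 below. When libraries were centred on 79 ribosomal protein genes instead, the median over all genes moved to 0.87, 14 members with a mean below that of non-tuft cells changed sign, none of them called, and the calls became 5 higher and 0 lower, against 11.6% and 1.83% of all genes. By adjusted p alone 14 members were then higher and 1 lower, against 20% and 2.36% of all genes. The 14 were Tubb5, Dync2li1, Kifc2, Kif1b, Kif3c, Tubgcp3, Tubgcp4, Kifc5b, Dynlt1f, Tubb6, Tubg1, Kif5c, Tubb2a and Kif9. Differences near 0 therefore carry no direction of their own here, and the large ones are described next.

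**Figure D1:**
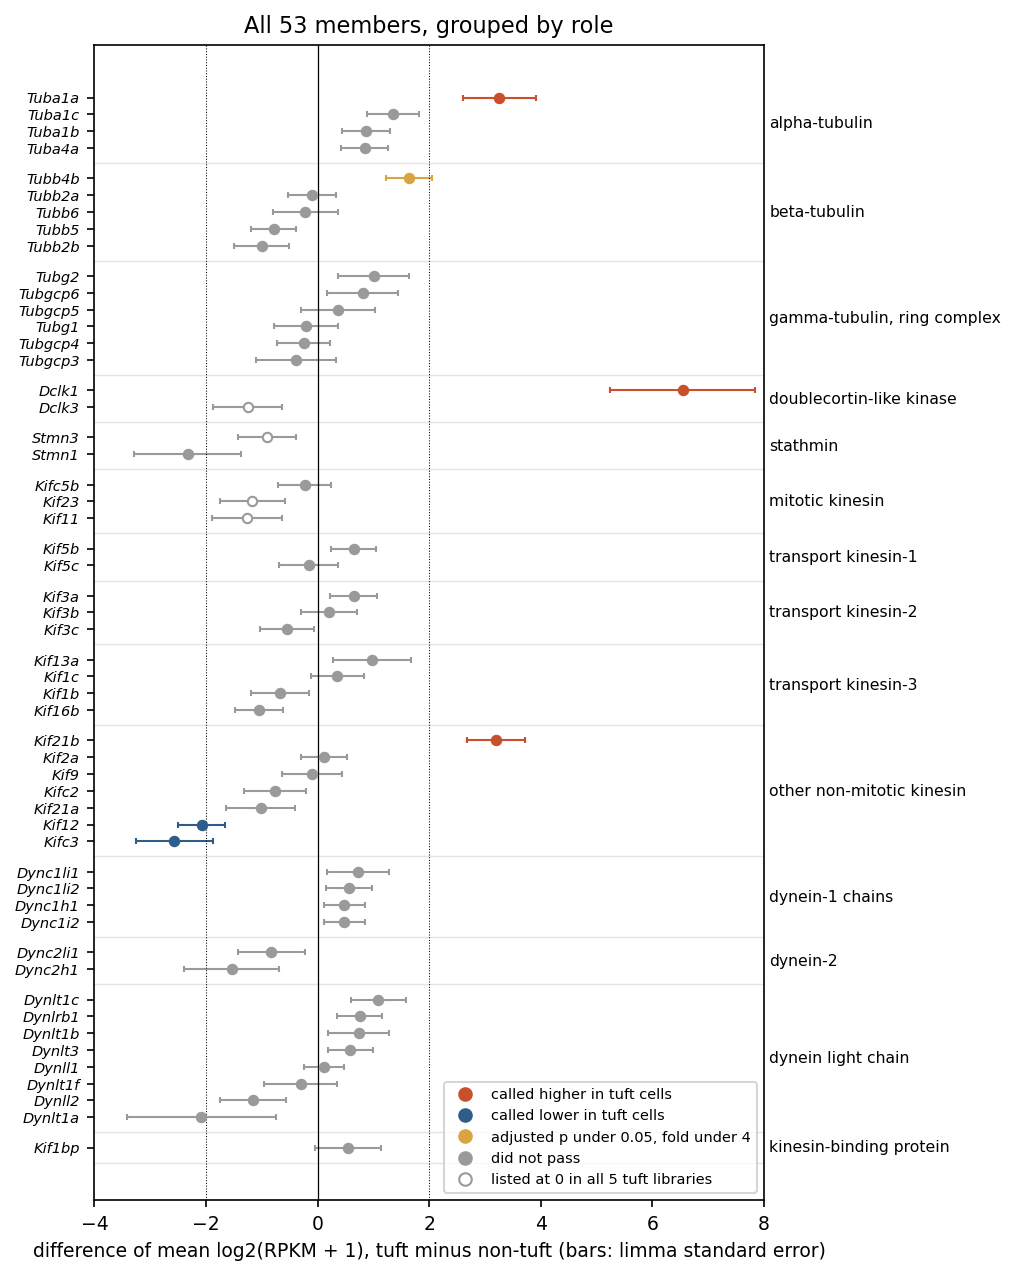
Difference of mean log2(RPKM + 1), tuft minus non-tuft, for all 53 members grouped by role, with limma's standard error as bars and dotted lines at the 4-fold threshold. Dclk1 stood at 6.54, Tuba1a and Kif21b at 3.26 and 3.20, and Kif12 and Kifc3 at -2.08 and -2.57, while most members lay within the dotted lines, and open symbols mark the 4 members listed at 0 in all tuft libraries, whose position depends on the constant added to RPKM.

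Alpha-tubulin RNA was higher in tuft cells, in the listed values mainly through Tuba1a. Tuba1a, Tuba1b and Tuba1c share 61.0%, 67.0% and 60% of their stretches, mainly with each other. The split between them therefore depends on how shared reads were assigned, which was not tested. Tuba1a (NCBIM37 chromosome 15, 98780272 to 98783982) is an alpha-tubulin isotype best known from developing neurons. It was at 6.11, 4.94, 4.39, 2.67 and 6.80 in non-tuft libraries 1 to 5 and at 8.05, 8.06, 8.59, 7.87 and 8.65 in tuft libraries 1 to 5. The tuft libraries lay close together and above all non-tuft libraries, which spread more widely (SD 0.35 against 1.60). The difference was 3.26 (standard error 0.66, adjusted p = 0.00559 from limma), a 9.58-fold higher level in tuft cells. The exact permutation test gave a two-sided p of 0.00794, the smallest that 5 against 5 unpaired libraries allow. Non-tuft libraries 1 and 5, the highest in Tuba1a, were among the 3 with tuft marker RNA above 1% of the tuft level. Without non-tuft libraries 1, 2 and 5 the difference was 4.71 (adjusted p = 0.00300, limma), and without tuft libraries 1 and 4, the highest in acinar markers, it was 3.45 (adjusted p = 0.0364, limma). In libraries of pooled cells, fewer cells of a type and less RNA per cell cannot be told apart.

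Tuba1c and Tuba1b, broadly expressed isotypes, changed less. Tuba1c was at 5.66, 5.38, 5.48, 3.85 and 6.09 in the non-tuft libraries and at 6.15, 6.34, 7.01, 6.65 and 7.07 in the tuft libraries, without overlap. Its difference of 1.35 (standard error 0.46) had an adjusted p of 0.0787 by limma. Tuba1b was at 6.45, 5.75, 5.14, 4.66 and 6.16 in the non-tuft libraries and at 6.07, 6.17, 6.81, 6.56 and 6.91 in the tuft libraries, where non-tuft libraries 1 and 5 reached into the tuft range. Its difference was 0.87 (standard error 0.43, adjusted p = 0.230, limma). Tuba4a, which shares 29.1% of its stretches with the neighbouring gene Stk16, was at 4.11 to 5.79 in the non-tuft libraries and 5.35 to 6.36 in the tuft libraries, with a difference of 0.84 (standard error 0.42, adjusted p = 0.236, limma). When Tuba1a, Tuba1b and Tuba1c were summed as 1 gene, an alternative chosen after seeing the data, the difference was 2.01 (standard error 0.49, adjusted p = 0.0160, limma). All 4 alpha-tubulins thus had a mean above that of non-tuft cells, and 1 of 4 was called, against 4.32% of all genes called higher. With ribosomal centring, which added 0.85 to every difference, all 4 passed the adjusted p, as did 20% of all genes as higher.

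Beta-tubulin genes did not move together. Tubb4b (NCBIM37 chromosome 2, 25077680 to 25080222), a beta-tubulin found in most tissues and abundant in cilia, was at 6.13, 5.37, 6.06, 6.51 and 6.87 in the non-tuft libraries and at 7.17, 7.62, 8.16, 7.83 and 8.34 in the tuft libraries. The groups did not overlap, and the difference of 1.64 (standard error 0.41, adjusted p = 0.0191, limma) was 3.11-fold, below the threshold for a call. It passed the adjusted p under most alternatives, but not without tuft library 3 or tuft library 5 (adjusted p = 0.0508 and 0.0533, limma) or without non-tuft libraries 1, 2 and 5 (1.54, adjusted p = 0.0640, limma). Tubb5, the main beta-tubulin of many dividing cells, was at 6.86, 6.30, 6.58, 5.86 and 7.23 in the non-tuft libraries and at 5.78, 5.26, 5.42, 6.51 and 5.90 in the tuft libraries. Tuft libraries 4 and 5 lay inside the non-tuft range and the other 3 below it, and tuft library 4 was the one with the most acinar marker RNA. The difference was -0.79 (standard error 0.41, adjusted p = 0.253, limma) and turned to 0.06 with ribosomal centring. Tubb2a was at 4.10, 2.14, 3.42, 3.11 and 3.85 against 2.81, 3.11, 3.16, 3.78 and 3.25 (difference -0.10, adjusted p = 0.916, limma). Tubb2b ran from 1.84 to 2.90 against 0 to 2.70 (standard error 0.49, adjusted p = 0.230, limma), and Tubb6 was at the floor in 3 libraries of each group. Tubb2a and Tubb2b share 46.4% and 38.0% of their stretches with other genes, mainly with each other, and their coding ends shown above are nearly identical.

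**Figure D2:**
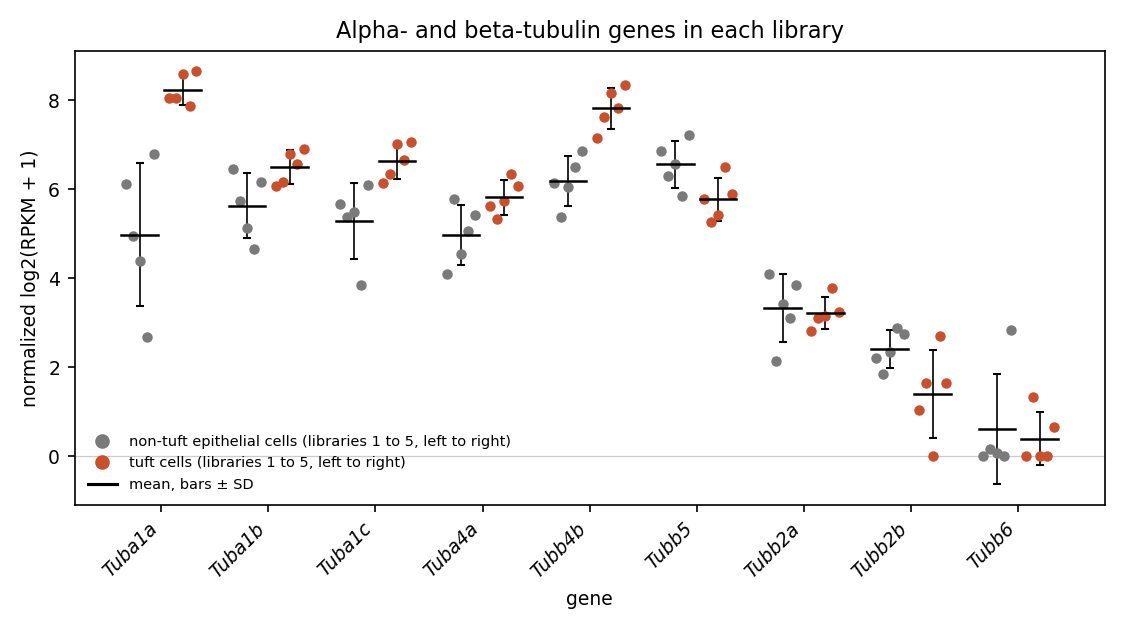
Normalized log2(RPKM + 1) of the 9 listed alpha- and beta-tubulin genes in every library, grey for non-tuft and red for tuft cells, with group means and SD as bars (n = 5 libraries each). The 2 colours separate without overlap for Tuba1a, Tuba1c and Tubb4b, and Tubb5 is the abundant gene whose tuft mean (5.78) lies below its non-tuft mean (6.56).

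Because RPKM is per length, isotypes can be given as shares of the RNA of their family within a library. Multiplying a library by 1 factor leaves these shares unchanged, but quantile normalization is not such a factor. Its effect on the shares was not tested. Tuba1a made up 30.9%, 16.8%, 16.7%, 7.12% and 38.0% of listed alpha-tubulin RPKM in non-tuft libraries 1 to 5 and 58.8%, 58.2%, 56.8%, 46.0% and 55.8% in tuft libraries 1 to 5. Its mean share was 55.1% ± 5.3 (SD, n = 5) in tuft and 21.9% ± 12.4 (SD, n = 5) in non-tuft libraries, and the groups did not overlap. Tuba1b went the other way, from 30.8% ± 5.5 (SD, n = 5) in non-tuft to 16.3% ± 1.4 (SD, n = 5) in tuft libraries, also without overlap, while the mean of its own level was above that of non-tuft cells by the 0.87 given above. The share of Tuba1c was 18.0% ± 1.6 (SD, n = 5) in tuft and 24.6% ± 6.9 (SD, n = 5) in non-tuft libraries, and that of Tuba4a 10.5% ± 3.3 and 22.8% ± 14.0 (SD, n = 5 each). The shares of Tuba1a, Tuba1b and Tuba1c depend on how the reads these copies share were assigned.

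Among beta-tubulins, Tubb4b made up 33.9%, 32.4%, 37.8%, 55.9% and 39.9% of the RPKM in the non-tuft libraries and 70.0%, 80.2%, 85.1%, 67.6% and 82.2% in the tuft libraries. Every tuft library was above every non-tuft library. Tubb5 held the complementary share, 56.4%, 62.6%, 54.3%, 35.4% and 51.3% in the non-tuft libraries and 26.5%, 15.2%, 12.5%, 27% and 15% in the tuft libraries, again without overlap. The predominant beta-tubulin RNA was therefore Tubb5 in 4 of 5 non-tuft libraries and Tubb4b in all 5 tuft libraries. The summed level of the 9 isotypes was 424, 302, 294, 237 and 580 RPKM in the non-tuft libraries and 652, 702, 1010, 842 and 1113 in the tuft libraries. The shares are a description of the members and carry no test.

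**Figure D3:**
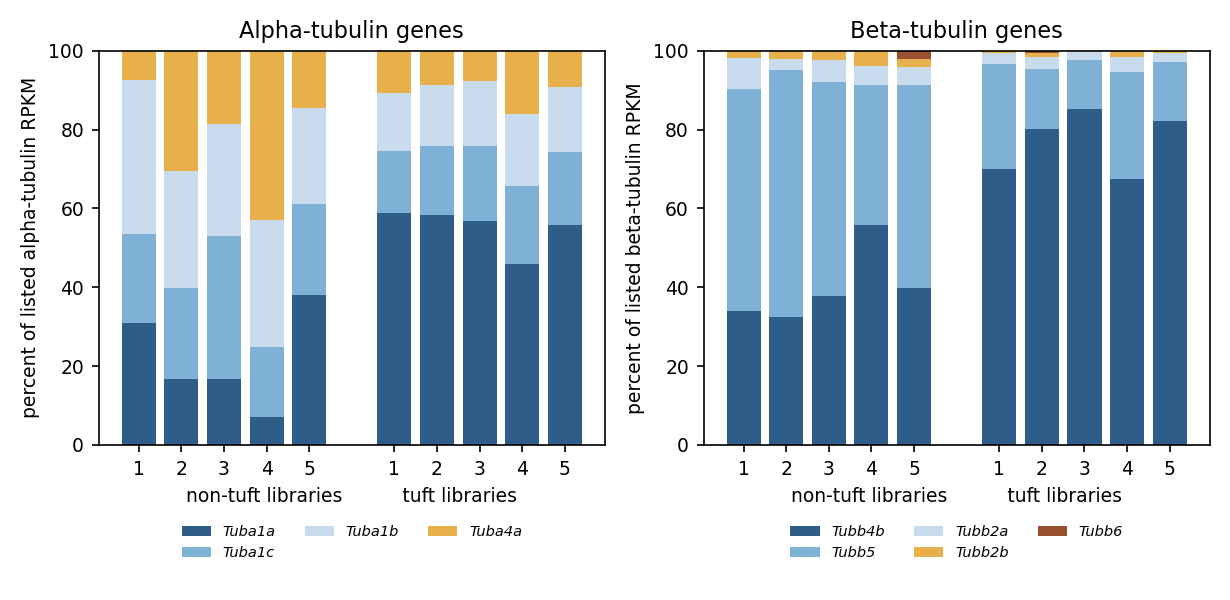
Share of each isotype in the summed RPKM of listed alpha-tubulin genes (left) and beta-tubulin genes (right) in non-tuft libraries 1 to 5 and tuft libraries 1 to 5, as stacked bars that add to 100 percent. The dark bar, Tuba1a on the left and Tubb4b on the right, is at most 38.0% and 55.9% in non-tuft libraries and at least 46.0% and 67.6% in tuft libraries.

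Genes of gamma-tubulin and its ring complex, which start new microtubules, were low in both groups and none of the 6 passed the adjusted p or an unadjusted p under 0.05 in limma, nor an exact permutation p under 0.05. Tubg1, the main gamma-tubulin, was at 2.40, 2.57, 2.95, 2.36 and 2.26 in the non-tuft libraries and at 2.98, 0, 2.96, 2.32 and 3.25 in the tuft libraries, so that tuft library 2 alone stood apart. Its difference was -0.21 (standard error 0.57, adjusted p = 0.863, limma). Tubgcp3 and Tubgcp5, subunits of the ring, had differences of -0.38 and 0.36 with standard errors of 0.72 and 0.67 and spread from 0.29 to 4.54 and from 0.17 to 3.56 among the non-tuft libraries alone. Tubg2, Tubgcp4 and Tubgcp6 had differences of 1.01, -0.25 and 0.81 and adjusted p between 0.360 and 0.791 (limma).

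Dclk1 (NCBIM37 chromosome 3, 55046448 to 55342986) was the member with the largest difference and, in tuft cells, the highest level. It was at 6.84, 8.46, 2.88, 0 and 7.14 in non-tuft libraries 1 to 5 and at 12.73, 11.75, 11.21, 10.68 and 11.66 in tuft libraries 1 to 5. The groups did not overlap, but the non-tuft libraries fell into 3 at 6.84 or more and 2 at 2.88 or less. The difference was 6.54 (standard error 1.30, adjusted p = 0.00507, limma). The 3 non-tuft libraries highest in Dclk1 were also the 3 highest in summed tuft markers, and library 3, at 2.88, had tuft markers of only 0.827 RPKM. As a percentage of the mean tuft level, Dclk1 was at 3.24%, 10.1%, 0.183%, 0% and 4% in non-tuft libraries 1 to 5, and Trpm5, the cation channel of taste transduction, was at 2.67%, 10.95%, 0%, 0% and 10.9%. Without non-tuft libraries 1, 2 and 5 the difference of Dclk1 was 10.17 (adjusted p = 0.00116, limma), and without single libraries it ran from 5.28 (without non-tuft library 4) to 7.39 (without non-tuft library 2). Its mean of 3496 RPKM in tuft cells was above that of every other member, the next being the dynein light chain Dynlrb1 at 428 RPKM, Tuba1a at 310 RPKM and Tubb4b at 235 RPKM.

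The other listed doublecortin-like kinase, Dclk3, was at 1.71, 3.64, 0, 0.93 and 0 in the non-tuft libraries and was listed at 0 in every tuft library, with an adjusted p of 0.230 (limma). Stathmins bind tubulin dimers and favour the disassembly of microtubules. Stmn1 was at 5.23, 0.17, 5.44, 4.78 and 5.56 in the non-tuft libraries and at 0, 2.29, 3.15, 2.49 and 1.61 in the tuft libraries. Apart from non-tuft library 2, which was at its floor, every non-tuft library was above every tuft library. The difference was -2.33 (standard error 0.96, adjusted p = 0.150, limma), and without non-tuft library 2 it was -3.34 (adjusted p = 0.00460, limma), so this library decides the call. Stmn3, known mainly from neurons, was at 2.46, 0.17, 1.91, 0 and 0 in the non-tuft libraries and was listed at 0 in every tuft library (adjusted p = 0.313, limma). Non-tuft library 1, the highest in Stmn3, was also the highest in islet and neuroendocrine markers.

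**Figure D4:**
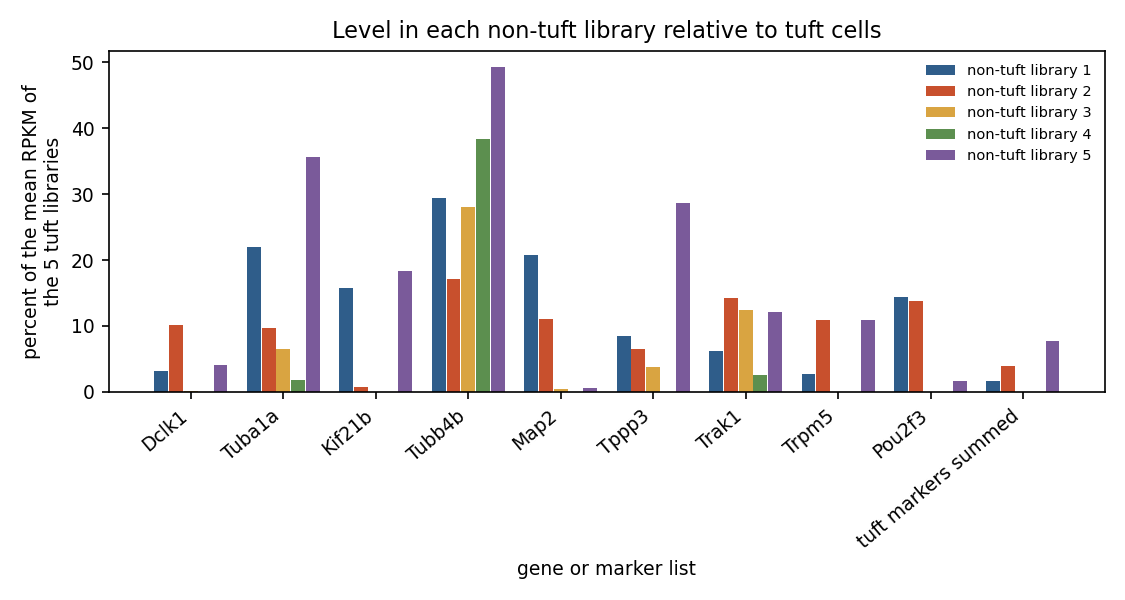
Level in each of the 5 non-tuft libraries as a percentage of the mean RPKM of the tuft libraries, for members, for non-member microtubule genes that are higher in tuft cells and for tuft cell markers. Dclk1, Kif21b, Trpm5 and Pou2f3 are at or near 0 in non-tuft libraries 3 and 4, whereas Tubb4b is at 28.1% and 38.4% there.

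Mitotic kinesins were separated from the others, and 3 were listed. Kif11, which pushes spindle poles apart, was at 3.35, 0.17, 2.48, 0 and 0.36 in the non-tuft libraries. Kif23, a subunit of the complex that bundles microtubules during the last step of division, was at 2.85, 0.17, 2.52, 0 and 0.31 in the same libraries. Both were listed at 0 in all 5 tuft libraries, and in non-tuft cells both were carried by libraries 1 and 3, with library 5 just above its floor and libraries 2 and 4 at it. Neither passed in limma (adjusted p = 0.230 and 0.235), and the exact permutation p was 0.0476 for each. No fold change is given, since all tuft libraries were at 0, and since both genes could be listed only through the non-tuft libraries their direction supports nothing. The remaining mitotic kinesin, Kifc5b, is a near copy of Kifc1 and shares 41.0% of its stretches with it. It was above the floor only in non-tuft library 3, at 2.08, and in tuft libraries 3 and 5, at 0.92 and 0.19 (adjusted p = 0.812, limma). None of the 3 mitotic kinesins had an unadjusted p under 0.05 in limma, and their median difference was -1.17.

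Other genes of dividing cells are given beside them. Of 23 listed proliferation genes, 12 were called with a lower level in tuft cells, against 3.99% of all genes, and 14 had an adjusted p under 0.05, all of them lower. Of the 23, 12 were listed at 0 in all tuft libraries and so, like Kif11 and Kif23, could be listed only through the non-tuft libraries, and their number is no support for a direction. The summed RPKM of the 23 genes was 219, 158, 211, 168 and 131 in the non-tuft libraries and 3.46, 3.86, 3.17, 2.25 and 7.33 in the tuft libraries. Mki67, a nuclear protein of cycling cells, was at 3.06, 3.49, 4.54, 1.77 and 0.96 against 0, 0, 0.26, 0.59 and 0 (difference -2.59, standard error 0.60, adjusted p = 0.0122, limma). Top2a, a topoisomerase of dividing cells, had a difference of -2.11 with an adjusted p of 0.0907 (limma). Ccna2 and Ccnb2, cyclins of the late cell cycle, lay between 3 and 5.23 in every non-tuft library, including libraries 2 and 4, in which Kif11 and Kif23 were at the floor. Tuft libraries had at most 0.80 for Ccna2 and were at 0 for Ccnb2. A gene listed at 0 in a library of 100 cells does not bound its expression, since the depth is unknown.

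**Figure D5:**
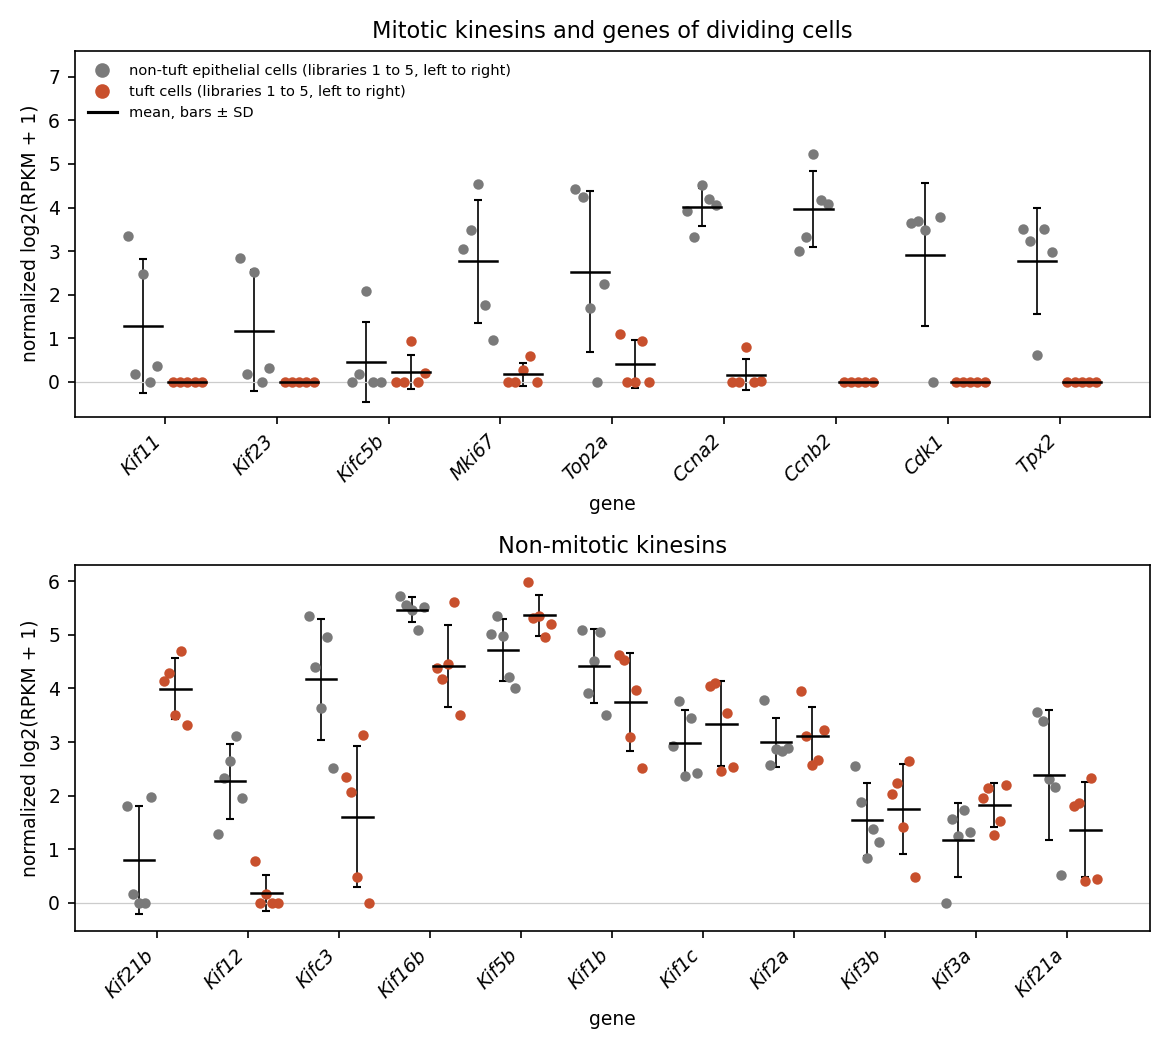
Normalized log2(RPKM + 1) per library of the 3 mitotic kinesins beside genes of dividing cells (top) and of 11 non-mitotic kinesins (bottom), grey for non-tuft and red for tuft cells, with means and SD as bars (n = 5 libraries each). Kif11 and Kif23 are at 0 in all tuft libraries and at or near the floor in 3 of 5 non-tuft libraries, whereas in the lower panel only Kif21b and Kif12 separate the groups without overlap.

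The promoters of Kif11 and Tubb4b are shown because they were the 2 member promoters that held both motifs known from cell cycle genes. The motifs searched were CCAAT and TTTGAA (the core of the cell cycle homology region), on both strands. Each sequence is the 250 bases before the RefSeq transcription start on GRCm38.p6, read 5′ to 3′ on the strand of the gene, with matches to either motif in capitals. The Kif11 stretch lies at chr19:37376132-37376381 (plus strand) and the Tubb4b stretch at chr2:25224703-25224952 (minus strand).
Kif11 promoter: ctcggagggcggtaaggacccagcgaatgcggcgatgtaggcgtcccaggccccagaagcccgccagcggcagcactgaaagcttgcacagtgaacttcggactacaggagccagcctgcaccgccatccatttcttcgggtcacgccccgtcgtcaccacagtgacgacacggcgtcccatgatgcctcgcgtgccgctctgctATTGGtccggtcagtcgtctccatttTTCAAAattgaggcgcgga
Tubb4b promoter: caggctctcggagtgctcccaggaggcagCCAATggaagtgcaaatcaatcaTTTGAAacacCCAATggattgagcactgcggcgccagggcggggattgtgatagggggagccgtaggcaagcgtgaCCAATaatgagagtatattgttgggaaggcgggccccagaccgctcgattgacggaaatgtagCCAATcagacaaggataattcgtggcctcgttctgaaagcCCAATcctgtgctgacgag
In Kif11, the CCAAT match began 45 bases before the start and the TTTGAA match 19 bases before it, both on the opposite strand. In Tubb4b, 5 CCAAT matches and 1 TTTGAA match were found. A promoter was given for 38 members (44 promoters). CCAAT was found in 15 of the 44 (34.1%), against 33.9% of all 32851 promoters, and TTTGAA in 2 of 44 (4.55%), against 16% of all. The octamer ATGCAAAT, the letters recognised by POU factors such as the tuft cell regulator Pou2f3, was found in 0 of 44, against 1.60% of all. A match describes letters and is not evidence of binding.

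Among 16 non-mitotic kinesins, 1 was called higher and 2 lower in tuft cells, against 4.32% and 3.99% of all genes. Their median difference was -0.13. Kif21b (NCBIM37 chromosome 1, 138027966 to 138074575) is a kinesin-4 family motor of neurons and lymphocytes that regulates microtubule growth. It was at 1.81, 0.17, 0, 0 and 1.97 in the non-tuft libraries and at 4.13, 4.30, 3.50, 4.70 and 3.32 in the tuft libraries. The groups did not overlap, and 3 non-tuft libraries were at their floor. The difference was 3.20 (standard error 0.52, adjusted p = 0.00136, limma), a 9.21-fold higher level (exact permutation test, p = 0.00794). Without non-tuft libraries 1, 2 and 5 it was 3.99 (adjusted p = 0.00306, limma), and without tuft libraries 1 and 4 it was 2.92 (adjusted p = 0.0193, limma). Its close relative Kif21a ran from 0.52 to 3.55 in the non-tuft and 0.40 to 2.32 in the tuft libraries, with a difference of -1.02 (standard error 0.62, adjusted p = 0.337, limma).

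Kif12 and Kifc3 were the members called lower. Kif12 (NCBIM37 chromosome 4, 62826668 to 62833165), a kinesin of kidney, liver and pancreatic epithelia, was at 1.28, 2.33, 2.65, 3.12 and 1.95 in the non-tuft libraries and at 0.78, 0, 0.16, 0 and 0 in the tuft libraries. The groups did not overlap. The difference was -2.08 (standard error 0.42, adjusted p = 0.00568, limma), a 4.22-fold lower level, and it fell below the 4-fold threshold without non-tuft library 3 (-1.98) or 4 (-1.86) while the adjusted p stayed at 0.0148 and 0.0136 (limma). With ribosomal centring it was -1.23 and no longer passed (adjusted p = 0.0679, limma). With 0.1 or 10 added to RPKM the difference of Kif12 was -4.41 or -0.47, so its fold depends on the added constant. Kifc3 (NCBIM37 chromosome 8, 97623732 to 97666440), a minus-end-directed motor found at epithelial cell junctions, was at 5.35, 4.40, 3.64, 4.97 and 2.51 in the non-tuft libraries and at 2.34, 2.08, 0.48, 3.14 and 0 in the tuft libraries. Tuft library 4 lay above non-tuft library 5, so the groups overlapped. The difference was -2.57 (standard error 0.69, adjusted p = 0.0272, limma), a 5.92-fold lower level.

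The order of the tuft libraries by Kifc3, namely 4, 1, 2, 3 and 5, was also their order by summed acinar markers. Without tuft libraries 1 and 4 the difference of Kifc3 was -3.32 (adjusted p = 0.0243, limma). Its adjusted p rose above 0.05 when any of non-tuft libraries 1, 2 and 4 or tuft libraries 3 and 5 was left out, up to 0.0806 (limma), and was 0.149 without non-tuft libraries 1, 2 and 5. For Kif12 the tuft libraries did not follow this order, since library 4 was at 0.

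Motors of the transport families showed no call. The kinesin-1 heavy chain Kif5b was at 5.02, 5.36, 4.98, 4.21 and 4.01 in the non-tuft libraries and at 5.99, 5.31, 5.35, 4.96 and 5.21 in the tuft libraries, with a difference of 0.65 (standard error 0.40, adjusted p = 0.348, limma). Kif5c, its mainly neuronal relative, was at the floor in 3 non-tuft and 4 tuft libraries. Among kinesin-2 motors, which drive transport into cilia, Kif3a was at 0, 1.56, 1.24, 1.74 and 1.32 against 1.96, 2.14, 1.26, 1.52 and 2.21 (difference 0.65, adjusted p = 0.382, limma). Kif3b and Kif3c had differences of 0.20 and -0.55 (adjusted p = 0.841 and 0.526, limma). The groups overlapped for each of these 5 genes. With ribosomal centring Kif5b and Kif3a passed the adjusted p (0.0262 and 0.0397, limma), as did 20% of all genes as higher.

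The kinesin-3 motor Kif16b, which carries early endosomes, was the transport kinesin nearest to the threshold. It was at 5.72, 5.56, 5.46, 5.09 and 5.52 in the non-tuft libraries and at 4.37, 4.17, 4.45, 5.61 and 3.51 in the tuft libraries. Only tuft library 4 lay inside the non-tuft range. The difference was -1.05 (standard error 0.42, adjusted p = 0.141, limma), and without tuft library 4, the one highest in acinar markers, it was -1.34 (adjusted p = 0.0399, limma). Kif1b and Kif1c, motors for vesicles and mitochondria, had differences of -0.67 and 0.35 (adjusted p = 0.466 and 0.694, limma), and Kif13a 0.97 (adjusted p = 0.435, limma). Kif2a, which depolymerises microtubule ends, was at 3.78, 2.58, 2.88, 2.84 and 2.89 in the non-tuft libraries and at 3.95, 3.11, 2.58, 2.66 and 3.23 in the tuft libraries (difference 0.11, adjusted p = 0.898, limma). Kifc2 and Kif9 had differences of -0.76 and -0.10 and adjusted p of 0.446 and 0.939 (limma). Kif1bp, the kinesin-binding protein, had a difference of 0.54 (standard error 0.59, adjusted p = 0.620, limma). Summed over the 16 non-mitotic kinesins, RPKM was 199, 175, 130, 154 and 101 in the non-tuft libraries and 177, 143, 98.8, 160 and 78.3 in the tuft libraries. The ranges overlapped in part, with tuft libraries 3 and 5 below every non-tuft library and non-tuft library 1 above every tuft library.

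Dynein chains were present in both groups, and none of the 14 had an adjusted p under 0.05 in limma, 1 (Dynlt1c) having an unadjusted p under 0.05 and 1 (Dynlrb1) an exact permutation p under 0.05. With ribosomal centring, which added 0.85 to every difference, 5 of the 14 passed, all higher in tuft cells, against 20% of all genes higher and 2.36% lower. These were Dynlrb1, Dync1h1, Dynlt1c, Dync1li2 and Dync1i2 (adjusted p from 0.0131 to 0.0445, limma), and the difference of Dync1h1 moved from 0.48 to 1.33. The 4 listed chains of dynein-1, the motor for transport towards the cell centre, each had a higher mean in tuft cells, with differences of 0.48 to 0.72. The heavy chain Dync1h1 was at 4.64, 4.30, 3.81, 4.23 and 3.90 in the non-tuft libraries and at 5.21, 4.73, 4.23, 4.78 and 4.34 in the tuft libraries. The difference was 0.48 (standard error 0.37, adjusted p = 0.463, limma). The intermediate chain Dync1i2, which links the motor to dynactin, was at 5.23, 5.40, 5.15, 4.72 and 4.64 against 5.77, 5.72, 5.34, 4.87 and 5.83 (difference 0.48, adjusted p = 0.470, limma). The light intermediate chains Dync1li1 and Dync1li2 differed by 0.72 and 0.56 (adjusted p = 0.465 and 0.433, limma). The groups overlapped for all 4 chains. Their summed RPKM was 65.3, 62.4, 53.7, 47.1 and 45.1 in the non-tuft libraries and 94.0, 85.8, 68.3, 60.9 and 86.4 in the tuft libraries.

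Dynein-2 returns material from the tips of cilia. Its heavy chain Dync2h1 was at 5.11, 3.97, 2.30, 2.40 and 1.37 in the non-tuft libraries and at 0, 0, 0.79, 3.24 and 3.42 in the tuft libraries (difference -1.54, standard error 0.86, adjusted p = 0.294, limma). Its light intermediate chain Dync2li1 had a difference of -0.83 (adjusted p = 0.435, limma). The groups overlapped for both genes, and Dync2li1 changed sign with ribosomal centring.

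Light chains were the most abundant dynein RNAs. Dynlrb1, of the roadblock class, was at 8.07, 8.67, 7.63, 7.71 and 7.48 in the non-tuft libraries and at 8.87, 9.40, 8.13, 8.72 and 8.24 in the tuft libraries (difference 0.76, standard error 0.40, adjusted p = 0.268, limma). Its exact permutation p was 0.0397. Dynll1, a light chain also found in many other complexes, was at 6.81, 6.53, 6.35, 5.88 and 6.31 against 6.47, 6.71, 5.98, 6.82 and 6.51, a difference of 0.12 (standard error 0.36, adjusted p = 0.872, limma). Dynll2 and Dynlt3 had differences of -1.16 and 0.59 (adjusted p = 0.246 and 0.412, limma).

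The 4 Dynlt1 copies could not be read separately. Of their 50-base stretches, 83.0% in Dynlt1a, 78.9% in Dynlt1b, 30.3% in Dynlt1c and 100% in Dynlt1f were shared with another gene. Dynlt1a was at 6.42, 6.47, 5.94, 5.76 and 5.72 in the non-tuft libraries and at 0, 7.59, 0, 5.53 and 6.78 in the tuft libraries. The tuft values of 0 in libraries 1 and 3 stand beside Dynlt1b values of 5.20 and 4.97 and Dynlt1c values of 6.04 and 5.60 in the same libraries. Summed as 1 gene, an alternative chosen after seeing the data, the copies had a difference of 0.31 (standard error 0.48, adjusted p = 0.734, limma), against -2.08 for Dynlt1a alone (adjusted p = 0.372, limma).

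Other genes of microtubules were read from lists of 148 listed genes in all, of which 7 had an adjusted p under 0.05 and a higher mean in tuft cells (4 of them called) and 4 a lower mean (2 called). These are 4.73% and 2.7% of the list, below the 6.19% and 5.55% of all genes. The median difference over these genes was 0.24, against 0.02 over all listed genes. Tubulin-modifying enzymes had 2 of 20 higher. Vash2, a tubulin carboxypeptidase, was at 0, 0.17, 0, 1.28 and 2.38 in the non-tuft libraries and at 3.74, 2.97, 3.84, 4.14 and 1.10 in the tuft libraries (difference 2.40, adjusted p = 0.0288, limma). Tpgs1, a subunit of a tubulin polyglutamylase, did not overlap between the groups (difference 1.24, adjusted p = 0.0379, limma). The acetyltransferase Atat1 and the deacetylase Hdac6 had differences of 0.56 and 0.49 (adjusted p = 0.581 and 0.685, limma).

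Among 30 microtubule-associated and tip-tracking genes, 2 were called higher and 2 lower, against 4.32% and 3.99% of all genes. Map2, a microtubule-stabilising protein of dendrites, was at 3.63, 2.81, 0.30, 0 and 0.45 in the non-tuft libraries and at 6.24, 5.88, 5.87, 5.61 and 5.22 in the tuft libraries (difference 4.33, standard error 0.68, adjusted p = 0.00112, limma). Tppp3, a protein that promotes tubulin polymerisation, was at 4.29, 3.95, 3.23, 0 and 6.01 against 6.69, 7.55, 7.99, 7.30 and 8.67 (difference 4.14, standard error 0.88, adjusted p = 0.00729, limma). For both genes the ranges of the groups did not meet, with tuft cells above. Dcdc2a, a doublecortin-domain protein of cilia, was at 6.33, 6.60, 4.59, 5.13 and 3.93 in the non-tuft libraries and at 2.08, 0.98, 0, 0 and 0 in the tuft libraries (difference -4.70, standard error 0.60, adjusted p = 2.83e-04, limma). The echinoderm microtubule-associated proteins Eml1 and Eml2, were also lower. Eml2 had a difference of -1.81 (adjusted p = 0.00868, limma), and Eml1, named after its values were seen because it was the other called gene, had -2.35 (adjusted p = 0.0145, limma).

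Among 11 kinesin light chains and adaptors, 1 was called, as higher, against 4.32% of all genes called higher. This was Trak1, an adaptor that couples mitochondria to kinesin-1 and dynein. It was at 2.54, 3.58, 3.40, 1.55 and 3.37 in the non-tuft libraries and at 6.38, 6.74, 6.30, 5.93 and 5.88 in the tuft libraries (difference 3.36, standard error 0.45, adjusted p = 4.11e-04, limma). Of 19 genes of dynactin and dynein adaptors, 2 had an adjusted p under 0.05, Dctn1 with a difference of 1.45 (standard error 0.35, adjusted p = 0.0165, limma) and Dctn3 with 1.49 (standard error 0.37, adjusted p = 0.0184, limma). Both dynactin subunits separated the groups without overlap. In all, 4 of the 19 genes and 0 of the 14 dynein chains did so, the 4 with tuft cells higher. Among all genes, 6.31% did not overlap with tuft cells higher and 5.12% with tuft cells lower, and 6.19% passed the adjusted p as higher. Of 8 severing enzymes, Fign was lower (difference -1.82, adjusted p = 0.0194, limma). None of 21 tubulin folding genes, 14 genes of nucleation and augmin, 24 of intraflagellar transport or the 1 listed axonemal dynein gene passed the adjusted p in limma, with 3, 2, 1 and 0 at an unadjusted p under 0.05. The difference between dynactin and dynein chains was not itself tested.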

How the data were processed

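Per the study's methods, Smart-Seq2 libraries of 100 sorted cells were read as 50-base single ends, checked with FastQC and aligned to mm9 with HISAT2, and RPKM values were obtained with StringTie and Ballgown. The authors kept genes whose RPKM variance reached 1, took log2 and applied quantile normalization (preprocessCore), and the deposited table holds these log2 values. That 1 was added to RPKM before the log was inferred from the values, which start at 0. The fold change, p-value and FDR columns of the authors in the same table were not used. Read totals are not given, so depth and counting error are unknown.

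Tuft and non-tuft libraries (5 each) were compared with limma 3.58.1 in R 4.3.3 over all 12160 genes, with Benjamini-Hochberg adjustment, without a block. Genes were called at a fold change over 4 with an adjusted p under 0.05. For single genes a two-sided exact permutation test (252 arrangements) was added. It treats all libraries as unpaired. If equal numbers mark the same mouse, fewer arrangements are allowed and its p-values do not apply. Non-overlap means that the ranges of the groups do not meet. Other steps used Biopython 1.88, matplotlib 3.10.9, pandas 2.3.3 and numpy 2.4.6 under Python 3.11.15. The same limma steps and thresholds, coded separately, were run on simulated normal values without floors, and the outcome is not reported here. Gene positions and coding sequences came from GENCODE vM1 on NCBIM37, and promoters from RefSeq on GRCm38.p6. Sequences of alpha-tubulin genes are not reported here.

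The members and gene lists were chosen with earlier results of these data known. Named with full values were members that passed the adjusted p, all Dclk, Stmn and mitotic kinesin genes, the 3 highest members of each role, up to 4 passing genes of each pathway list, Atat1, Hdac6, Mki67 and Top2a, and other members are given in brief so that each is accounted for. Alternatives were a replicate block, 0.1 or 10 added to RPKM, a minimum mean of 2, ribosomal centring, trended and robust variances, floors set to 0, a 2-fold threshold and each library left out. Alternatives without the libraries that carried markers of the other cells, and with Dynlt1 or Tuba1 copies summed, were chosen after seeing the data. The labels do not say that a number marks a mouse, so p-values measure the spread between these libraries.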

Additional observations from a re-analysis of the deposited data

Results flagged for a closer look

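In 70 groups of 5 libraries examined over the named members, 9 had 1 library set far from the other 4, by a gap of more than 0.71 of the group's range. For 5 normally distributed values, chance alone gives such a gap in about 1 of 20 groups. That rate does not hold for groups with values tied at the floor, which several flagged groups had. The number of flags is therefore not read as an excess. All values are log2(RPKM + 1). Kif12 stood at 0.78 in tuft library 1, above the other tuft libraries, which reached at most 0.16, and all non-tuft libraries were higher still. Stmn1 stood at 0.17, the floor, in non-tuft library 2, while the other non-tuft libraries lay between 4.78 and 5.56. Kif3a was at 0 in non-tuft library 1, and Tubg1 was at 0 in tuft library 2, where the other tuft libraries lay between 2.32 and 3.25. Kif3c was at 1.47 in tuft library 4 and Kif5c at 1.90 in tuft library 1, beside values at or near 0 in the rest of their group. Kifc5b was at 2.08 in non-tuft library 3 and at 0.92 in tuft library 3. For Kif2a, non-tuft library 1 had 3.78, and the rest of that group had 2.58 to 2.89.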

How the results depend on the processing

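The calls of Dclk1, Tuba1a and Kif21b as higher were kept whenever a single library was left out, and 3 members were called higher each time. With 10 added to RPKM, Kif21b stayed under the 4-fold threshold (1.2, adjusted p = 0.00153, limma). The 2 members called lower became 1 with 0.1 added to RPKM, 0 with 10 added, 1 among the 7270 genes with a mean of at least 2, 0 with ribosomal centring and 1 without non-tuft libraries 1, 2 and 5. The 2 that were lower by adjusted p alone became 1 with 0.1 added, 1 with the minimum mean, 1 with ribosomal centring and 1 without those 3 non-tuft libraries. Ribosomal centring gave 5 called higher and 14 higher by adjusted p alone. With single libraries left out, called lower ran from 0 (without non-tuft library 4) to 2, higher by adjusted p from 3 to 5 and lower by adjusted p from 1 to 3. Leaving out any of non-tuft libraries 1 and 3 and tuft libraries 3 and 5 gave 1 called lower. Over the 37 named members alone, 738 of 761 comparisons kept their side of the adjusted p threshold, 12 gained it and 11 lost it. Most named members did not pass in the main fit, so most comparisons that kept their side were of members that did not pass. The 11 losses fell on 3 members that had passed, Kifc3, Tubb4b and Kif12. The tally leaves out the 4-fold threshold, so the call of Kif21b lost with 10 added counts as kept. Outside that tally, Dynlt1c, Tuba4a and Dync1li2 gained it with ribosomal centring and Tubg2 without non-tuft library 2. Where a call moved, the cause was not tested.

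With the library number as a replicate block, the counts were again 3 called higher and 2 called lower, 4 and 2 by adjusted p, and the adjusted p (limma) was 0.00557 for Dclk1, 0.0236 for Kif12 and 0.00486 for Kifc3. Deviations of same-numbered libraries correlated at 0.124, 0.0792, 0.115, 0.0619 and 0.24, all positive but weak. In addition, 7 of 10 libraries correlated best with their own number, so a pairing by number is possible. The main fit had no block because the labels do not say that a number marks a mouse. The block changed no call in limma, and the exact permutation test was run without pairs only.

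The shares of single isotypes moved little when 1 library was left out, Tuba1a between 54.2% and 57.4% in tuft and 17.9% and 25.6% in non-tuft libraries, and Tubb4b between 75.0% and 79.4% and between 36.0% and 41.9%. Read totals are unknown, 100 cells were pooled per library and near-identical copies share reads, which limits what a value of 0 or a difference between copies can show.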
